A study of Mus musculus with 7 samples.

Results

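The Stefin A cluster is a row of related protease inhibitor genes on mouse chromosome 16, and 6 of its genes are described here in epidermis that had lost the lipid transporter gene Abca12. The genes were taken by name: Stfa1, Stfa2, Stfa3, BC100530, BC117090 and Gm5416, 6 of the 7091 genes listed in the deposited table. They were picked because their levels were far higher in mutant than in control mice in that table, so the difference between mutants and controls is given below as a description, with no test. In the same libraries the authors' adjusted p was below 0.05 for every listed gene, so the whole table is also a selection.

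Stefins A, which belong to the type 1 cystatins, are small proteins of the cytosol. They bind papain-like cysteine proteases such as cathepsins B, L and S in their active site cleft, tightly and reversibly. In human epidermis stefin A is a single protein, cystatin A, made in the upper layers. There transglutaminases can link it into the cornified envelope, the protein shell of a dead keratinocyte. In the mouse the gene has been copied many times over, and transcripts of several copies are also known from neutrophils.

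RNA from 7 mice was sequenced in bulk, 1 library per mouse. The KA mice (n = 4) carried K14-CreERT and a conditional Abca12 allele (K14-CreERT;ABCA12-cKO). CreERT is a recombinase that works only after tamoxifen, and the keratin 14 promoter drives it in basal keratinocytes. The controls (n = 3, ABCA12-c/c) carried the conditional allele without CreERT. All mice of both groups were given tamoxifen at 8 weeks of age, 1 mg per 40 g of body weight on each of 3 days, and epidermis was separated from telogen (resting phase) skin 2 weeks later. The contrast therefore holds the deletion together with an active recombinase, which cannot be told apart. Abca12 itself was not analysed here, so the deletion was not checked at the RNA level. KA 1 and KA 2 were males and KA 3 and KA 4 females, while control 2 was a male and controls 1 and 3 were females. Listed reads came to between 9590718 and 12761458 per library; these totals cover listed genes only and are not sequencing depths. Levels are the authors' normalized reads, that is read counts divided by 1 size factor per library (0.888 to 1.25). Keratinocyte markers were by far the most abundant of the cell type markers, with a summed level of 491233 to 531850 normalized reads in controls and 1043607 to 1144073 in KA libraries over the 6 of 10 listed.

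The 6 genes lie within 245 kb (chromosome 16, 36210403 to 36455392, GRCm38/mm10). In order along the chromosome they are Gm5416 (ENSMUSG00000094733, 36210403 to 36217788, plus strand), Stfa1 (ENSMUSG00000071562, 36276951 to 36285373, plus strand), BC117090 (ENSMUSG00000079594, 36321665 to 36334332, minus strand), BC100530 (ENSMUSG00000071561, 36359382 to 36367748, minus strand), Stfa2 (ENSMUSG00000022902, 36403992 to 36408457, minus strand) and Stfa3 (ENSMUSG00000054905, 36450537 to 36455392, minus strand). All 6 are annotated as protein coding, with 3 coding exons, and in each the second coding exon had 102 bases and the last had 123. The last coding exon, which the results on read assignment below turn on, is printed here from the GRCm38 genome, 5′ to 3′ on the coding strand. Capitals mark bases that differ from the commonest base at that position among the 6 genes, or that fall in a tie.
Stfa1 (chr16:36285170-36285292): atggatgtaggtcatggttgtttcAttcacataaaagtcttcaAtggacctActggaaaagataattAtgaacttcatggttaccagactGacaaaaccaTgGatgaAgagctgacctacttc
BC100530 (chr16:36359463-36359585): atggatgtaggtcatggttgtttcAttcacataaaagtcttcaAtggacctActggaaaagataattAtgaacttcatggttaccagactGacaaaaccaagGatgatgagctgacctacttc
BC117090 (chr16:36321725-36321847): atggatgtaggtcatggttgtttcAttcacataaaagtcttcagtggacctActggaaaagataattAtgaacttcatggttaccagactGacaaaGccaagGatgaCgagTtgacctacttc
Gm5416 (chr16:36217663-36217785): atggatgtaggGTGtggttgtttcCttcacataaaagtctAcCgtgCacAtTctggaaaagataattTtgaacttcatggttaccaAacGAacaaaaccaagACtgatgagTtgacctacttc
Stfa3 (chr16:36450612-36450734): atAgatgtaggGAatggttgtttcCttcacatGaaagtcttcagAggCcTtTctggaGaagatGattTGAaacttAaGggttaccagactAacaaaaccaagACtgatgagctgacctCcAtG
Stfa2 (chr16:36404030-36404152): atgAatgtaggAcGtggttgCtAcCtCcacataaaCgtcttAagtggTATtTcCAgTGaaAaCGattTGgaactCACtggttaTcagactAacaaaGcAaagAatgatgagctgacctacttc

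All 6 genes had the same base at 74 of these 123 positions. Stfa1 and BC100530 differed at 2 positions (98.4% identity), BC100530 and BC117090 at 4 (96.7%) and Stfa1 and BC117090 at 5 (95.9%). Stfa2 was the most distant, with 73.2% identity to Stfa1, the lowest of the 15 pairs. These likenesses bear on the counts, since a read that fits several genes can be split or lost, and how such reads were counted is not given in the sources used here. Of all 50-base words in the annotated transcript, BC100530 shared 48.9% with another annotated gene, BC117090 33.7%, Stfa1 26.9% and Stfa2 15.9%, while Stfa3 and Gm5416 shared 0%. The split of reads between BC100530, BC117090 and Stfa1 is therefore uncertain, and Stfa2 shares words with annotated relatives outside the 6 genes. The values of Stfa3 and Gm5416 rest on sequence that is unique at that word length.

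The genes also shared a sequence just ahead of the start sites that RefSeq gives them. Promoter windows (250 bases before to 50 after the start) were matched in RefSeq (GRCm38.p6) for 5 of the 6 genes, BC100530 as Cstdc5 and Gm5416 as Csta3. The longest run of bases that begins ahead of the start in 5 of 5 was the 13-base box ACCTTTAAAACCC. RefSeq's starts differ from the gene positions given above. By those positions the box lies inside the gene in Stfa1, Stfa2 and BC100530, and ahead of it in Stfa3 and Gm5416. The box is printed with its surroundings, 30 bases on the coding strand, because these genes have it in common before their RefSeq starts. Capitals mark the box.
Stfa1 (chr16:36277105-36277134, plus): gctttcggatACCTTTAAAACCCtgagtct
Stfa2 (chr16:36408376-36408405, minus): gcttacagaaACCTTTAAAACCCtgagtct
Stfa3 (chr16:36455407-36455436, minus): cttacagataACCTTTAAAACCCcgagtct
BC100530 (chr16:36367563-36367592, minus): gtttacagatACCTTTAAAACCCcgagtct
Gm5416 (chr16:36210313-36210342, plus): ttttacagatACCTTTAAAACCCcgagtct

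Searched on both strands, the box stood in 9 of 32544 promoter windows (0.0277%), and all 9 belong to the same stretch of chromosome 16. Its first base lay 32, 33 and 34 bases ahead of the RefSeq start in Stfa2, Stfa1 and Stfa3, 12 bases ahead in BC100530 and 80 ahead in Gm5416. A longer shared run of 17 bases, which did not begin ahead of the start in all 5, stood in 6 of the 32544 windows, again all in that stretch. Both runs were chosen because these 5 windows share them, so their presence there was fixed in advance. Whether long runs chosen in this way are usually this rare elsewhere was not tested. Among motifs of known factors, the C/EBP motif TTGCNNAA was found in Stfa1, BC100530 and Gm5416 (10.8% of all windows hold it), and the AP-1 motif TGANTCA in Stfa3 alone (7.79%). The STAT motif TTCNNNGAA (8.33%) and the TATA motif TATAAA (13.6%) were found in 0 of 5. A match describes the letters of these windows only.

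Stfa3 was the most abundant of the 6 genes. It stood at 22.7, 66.0 and 70.6 normalized reads in controls 1 to 3 and at 76830, 52727, 46308 and 55168 in KA 1 to 4. The control mean was 53.1 ± 26.4 (SD, n = 3) and the KA mean 57758 ± 13252 (SD, n = 4), a 1088-fold ratio. The groups lay far apart, with KA 1 the highest of the KA libraries and control 1 the lowest of all 7. In bulk RNA of this kind, more cells that express a gene and more RNA per cell cannot be told apart, which holds for all values below.

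BC100530 was next in level, a gene close in sequence to Stfa1. Its controls stood at 12.3, 4.12 and 28.1 normalized reads and its KA libraries at 52778, 29975, 29311 and 39792. The means were 14.8 ± 12.2 (SD, n = 3) and 37964 ± 10977 (SD, n = 4), a 2559-fold ratio, with only 13, 4 and 35 reads behind the control values. Stfa1 stood at 8.52, 18.6 and 12.8 in controls and at 15630, 7205, 5806 and 12127 in KA libraries. Its means of 13.3 ± 5.03 (SD, n = 3) and 10192 ± 4527 (SD, n = 4) gave a 766-fold ratio. Neither gene's groups overlapped, and KA 1 and KA 4 were the higher KA libraries for both.

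The other 3 genes were sparser and were at or next to 0 in controls. BC117090 had 0 reads in each control and 678, 286, 172 and 282 reads in KA 1 to 4, or 671, 322, 180 and 293 normalized reads. Its KA mean of 366 ± 212 (SD, n = 4) was at least 132-fold higher than a floor of 3 counts in each control library. Gm5416 also had 0 reads in each control, against 486, 131, 55 and 371 reads in KA 1 to 4. Its KA mean of 268 ± 198 normalized reads (SD, n = 4) was at least 96.3-fold higher than the same floor. Stfa2 had 0, 0 and 1 read in controls and 487, 227, 300 and 303 reads in KA libraries. Its KA mean was 341 ± 97.5 normalized reads (SD, n = 4), and the ratio to the controls was 1129 with a 95% counting interval of 202 to 44616. In all 3 genes every KA library was above every control. Intervals and floors cover counting error only, since reads are not independent molecules.

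In all 6 of the genes each KA library stood above each control library. Among all 6761 genes that passed the filter on low counts the same held for 49%, and 44% were called higher in KA mice by edgeR's quasi-likelihood test at a Benjamini-Hochberg adjusted p under 0.05 (47.5% lower, 91.5% in either direction). All 6 genes passed that filter. Because the genes were chosen on this contrast, nothing is read from their count. In the authors' deposited table, BC100530, BC117090, Gm5416, Stfa3, Stfa2 and Stfa1 held places 4, 5, 8, 11, 12 and 15 by log2 fold change.

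**Figure D1:**
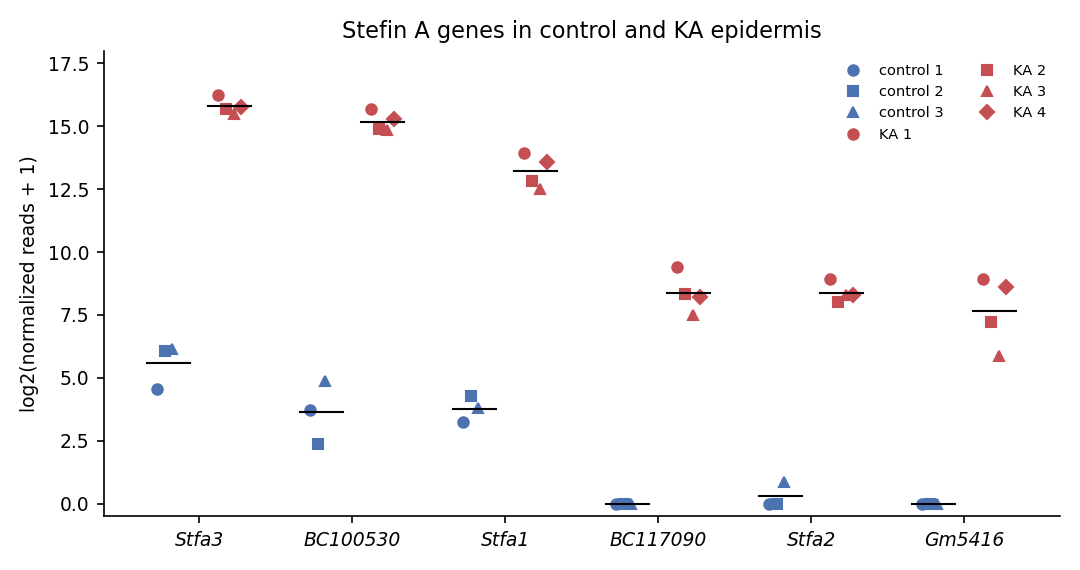
Level of each Stefin A gene in every library, as log2(normalized reads + 1); blue marks are controls, red marks KA libraries, shapes give the library number and black lines the group means. Stfa3, BC100530 and Stfa1 reach the highest KA levels, and BC117090 and Gm5416 sit at 0 in the 3 controls.

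Summed over the 6 genes, controls held 46, 86 and 140 reads and KA libraries 148478, 80443, 78488 and 104103. On the normalized scale the sum was 81.5 ± 34.9 in controls (SD, n = 3) and 106890 ± 28780 in KA mice (SD, n = 4), a 1312-fold ratio. With TMM factors in place of the authors' size factors, the mean log2 CPM of the sum differed by 10.29, with a pooled within-group SD of 0.50. These reads were 0.000456%, 0.000897% and 0.0011% of the listed reads in controls. In KA 1 to 4 they were 1.22%, 0.798%, 0.733% and 0.971%, with a mean of 0.93% ± 0.217 (SD, n = 4). About 1 in 100 listed reads of KA epidermis thus came from this stretch, and without Stfa3 the KA mean was 0.427%.

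Per kilobase of the authors' gene length, so that genes of unlike length can be set side by side, Stfa3 averaged 140190 normalized reads per kb in KA mice and 129 in controls. The KA value was the fourth of all listed genes, below the basal keratin Krt14 (198273), Lgals7 (179192), which encodes an epithelial galectin, and the basal keratin Krt5 (148938), and above the suprabasal keratin Krt1 (68929) and Krt17 (65111). In single KA libraries Stfa3 took place 3 or 4 of 7091 on this scale, against places 4413, 2784 and 2666 in controls 1 to 3. BC100530 took places 8 to 13 and Stfa1 places 26 to 76 in KA libraries. On the same scale the KA means were 48056 for BC100530, 14355 for Stfa1, 947 for BC117090, 911 for Gm5416 and 725 for Stfa2. The 6 genes as counted thus fell into an abundant trio and a sparse trio in KA mice. The split of reads between BC100530, BC117090 and Stfa1 is uncertain, as said above, and so are their separate levels. The KA ranges of the abundant trio do not overlap one another or those of the sparse genes. Those of the sparse trio do, so no order among BC117090, Gm5416 and Stfa2 is read.

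The make-up of the Stefin A reads varied little among the 4 KA mice in its main parts. Stfa3 gave 52.3%, 58.2%, 56.5% and 51.0% of them in KA 1 to 4 (54.5% ± 3.38, SD, n = 4), and BC100530 gave 35.9%, 33.1%, 35.8% and 36.8% (35.4% ± 1.62). These 2 genes together gave 87.9% to 92.2% of the Stefin A reads in each KA library. Stfa1 gave 10.6%, 7.95%, 7.08% and 11.2%, higher in KA 1 and KA 4 than in the other 2. Stfa2 gave 0.321% ± 0.0455, BC117090 0.326% ± 0.104 and Gm5416 0.229% ± 0.136 (SD, n = 4). Gm5416 was the least even of them, from 0.0701% in KA 3 to 0.356% in KA 4. The separate shares of BC100530, BC117090 and Stfa1 carry the uncertainty of shared sequence described above.

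In controls Stfa3 was also the largest contributor, at 52.2%, 74.4% and 62.9% of the Stefin A reads. BC100530 gave 28.3%, 4.65% and 25% there and Stfa1 19.6%, 20.9% and 11.4%. With 46 to 140 reads behind them, the control shares are too coarse to set against those of KA mice, and no difference in make-up was tested.

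**Figure D2:**
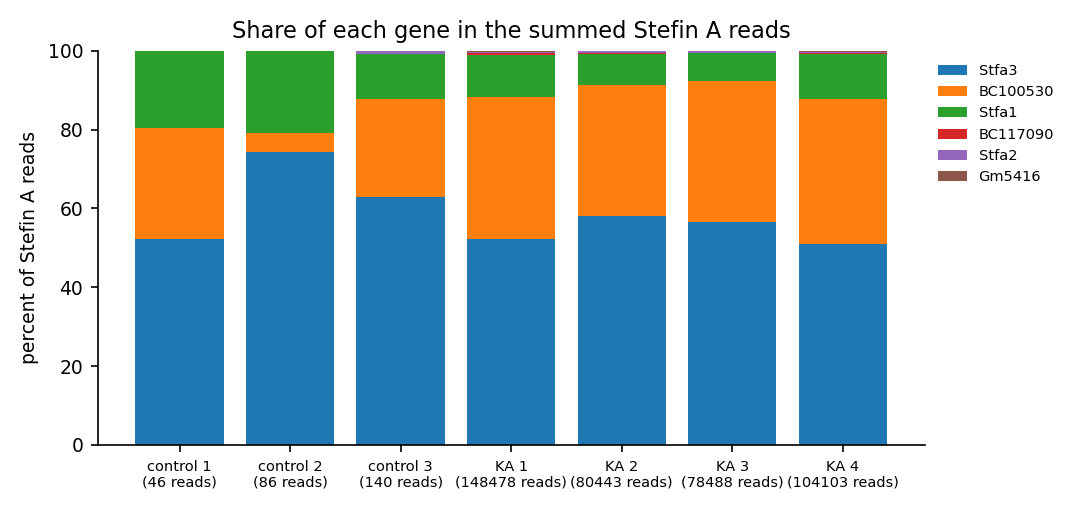
Share of each gene in the summed Stefin A reads, as percent, for the 3 control and 4 KA libraries, with the number of reads under each bar. In every KA library Stfa3 and BC100530 together make up between 87.9% and 92.2%, and the control bars rest on 46 to 140 reads.

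The 6 genes differed in how far apart the KA mice lay. The highest KA library was 1.66 times the lowest for Stfa3, 1.80 times for BC100530, 1.88 times for Stfa2, 2.69 times for Stfa1, 3.73 times for BC117090 and 8.37 times for Gm5416. As a coefficient of variation over KA libraries this was 22.9% for Stfa3, 28.6% for Stfa2, 28.9% for BC100530, 44.4% for Stfa1, 57.9% for BC117090 and 74.0% for Gm5416. All 6 were above the median of 14.4% (quartiles 9.71% and 21.2%) over the 5196 listed genes with a KA mean of at least 100 normalized reads. Counting noise alone is larger for the sparse genes, down to 55 reads for Gm5416 in KA 3.

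KA 1 was the highest KA library for 6 of 6 genes, and KA 3 the lowest for 5 of 6, with Stfa2 lowest in KA 2. Among the 3043 of those genes with a higher mean in KA mice, 63.5% were also highest in KA 1, so that place is common. Over all 5196 genes 33.1% were lowest in KA 3. The share among genes higher in KA mice was not worked out, so nothing is read from the 5 of 6. Stfa3, BC100530, Stfa1 and Gm5416 all followed the order KA 1, KA 4, KA 2, KA 3. Relative to its own KA mean, Gm5416 stood at 1.80, 0.551, 0.215 and 1.44 in KA 1 to 4, while Stfa3 stood at 1.33, 0.913, 0.802 and 0.955. The 2 genes share the order of the mice but not the size of the spread. The calprotectin genes S100a8 and S100a9, made by neutrophils and by stressed keratinocytes, stood at 1.48, 0.612, 0.303 and 1.61 and at 1.84, 0.560, 0.259 and 1.34 of their own KA means. With 4 KA mice no correlation is given.

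**Figure D3:**
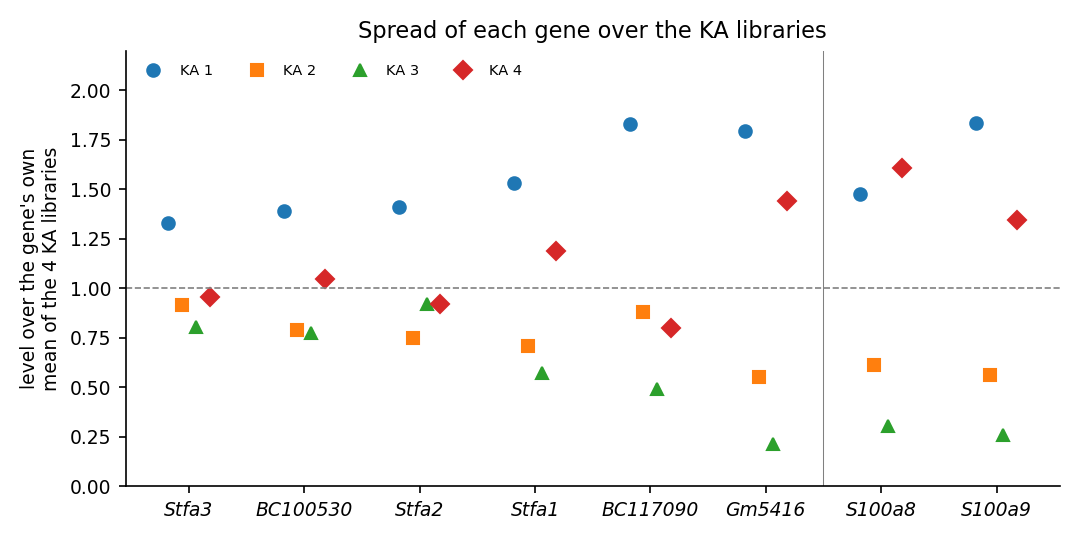
Level of each gene in KA 1 to 4 divided by that gene's own mean over the 4 KA libraries (no unit; the dashed line is the mean), with S100a8 and S100a9 to the right of the vertical line. Stfa3 keeps between 0.802 and 1.33, and Gm5416 runs from 0.215 to 1.80.

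The KA males were then compared with the KA females, a contrast that the choice of the genes did not use. Sex and the run of animal numbers coincide among the KA mice and cannot be told apart. Of the 6 genes, 0 passed an adjusted p of 0.05 in edgeR's quasi-likelihood test (1 had an unadjusted p under 0.05), and in DESeq2 the counts were likewise 0 and 1. Over all genes tested 0.0148% passed, which is 1 gene. BC117090 showed the largest difference, with a mean of 496 normalized reads in the 2 males and 236 in the 2 females. Both males were above both females, but the share of all genes with such a gap was not worked out, so nothing is read from it. Its log2 difference, males minus females, was 1.00 (95% interval 0.14 to 1.86; edgeR adjusted p = 0.403).

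For the other 5 genes the interval held 0. Stfa3 had means of 64779 in males and 50738 in females, a log2 difference of 0.28 (95% interval -0.47 to 1.03, edgeR adjusted p = 0.782). BC100530 differed by 0.18 (-0.49 to 0.86, edgeR adjusted p = 0.838), Stfa1 by 0.27 (-0.72 to 1.26, edgeR adjusted p = 0.832) and Stfa2 by 0.16 (-0.56 to 0.87, edgeR adjusted p = 0.873). Gm5416 had the widest interval, from -2.16 to 3.02 around 0.43 (edgeR adjusted p = 0.893), so that several-fold differences in both directions lie within it. The male and female values overlapped for each of these 5 genes, and with 2 mice each these intervals do not show that the sexes were alike. The 1 gene that passed was Mrgprb11-ps (edgeR adjusted p = 0.00776), named after its values were seen. It stood at 0 and 1.13 normalized reads in KA males and 41.8 and 35.3 in KA females. The control females stood far higher, at 1405 and 1167, and the control male at 1453.

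Other listed genes near the cluster were examined next. Within 500 kb of the 6 genes, 17 further genes were listed, 4 of them inside the stretch between Gm5416 and Stfa3. The first of these, 2010005H15Rik, is another stefin A gene, and had 0 reads in each control and 54, 47, 30 and 44 reads in KA 1 to 4, at least 16.5-fold higher. The small nuclear RNA gene Gm25465, 59 bases from BC100530, had 0 reads in controls and 48, 22, 13 and 28 in KA libraries, at least 10.3-fold higher. Gm15845, annotated as antisense, overlaps BC100530 by 679 bases and had 35, 14, 14 and 21 reads in KA libraries and 0 in controls, at least 7.81-fold higher. As the strand setting of the counting is not given in the sources used here, reads of BC100530 and Gm15845 cannot be told apart. Gm23306, a small nuclear RNA gene 59 bases from Stfa1, had 14, 4, 1 and 9 reads in KA libraries and 0 in controls. All 10 listed genes within the stretch thus had every KA library above every control, as did 49% of all genes tested. Nothing is read from this count. The 6 Stefin A genes were chosen on this contrast, and a gene with 0 control reads can enter the table only through its KA reads. Just outside, 663 bases from Gm5416, the pseudogene Gm10913 had 2, 2, 4 and 5 reads in KA libraries and 0 in controls.

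Genes on either side of the cluster moved in both directions. Of the 12 tested, 5 were higher and 6 lower in KA mice, with log2 fold changes between -1.36 and 1.78, where 44% and 47.5% of all genes tested were higher and lower. The nearest on one side, Ccdc58, was 118282 bases from Gm5416 and rose by 0.86 in log2 (edgeR adjusted p = 0.00159). Its neighbour Fam162a, a mitochondrial protein gene, rose from 1520 ± 274 (SD, n = 3) to 5743 ± 1012 normalized reads (SD, n = 4), or by 1.78 in log2 (SE 0.16, edgeR adjusted p = 2.01e-05). On the other side the nearest was Cd86, a co-stimulatory receptor ligand of antigen-presenting cells, 148476 bases from Stfa3, which rose from 75.3 ± 23.4 to 230 ± 35.6 (log2 fold change 1.47, edgeR adjusted p = 0.000369). Hcls1 (1.13) and Hspbap1 (0.48) also passed as higher, Hspbap1 with an adjusted p of 0.0278 that rose to between 0.0520 and 0.0784 without control 1, control 3, KA 1 or KA 2. Parp14 (-0.93), Parp9 (-0.73) and Dtx3l (-0.86), which take part in ADP-ribosylation, fell, as did Wdr5b (-1.05), Iqcb1 (-1.36) and Golgb1 (-0.85). Kpna1 did not pass (log2 fold change 0.26, edgeR adjusted p = 0.111), and passed with the authors' size factors (0.40, adjusted p = 0.0244) and without control 1 (0.44, adjusted p = 0.0227).

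**Figure D4:**
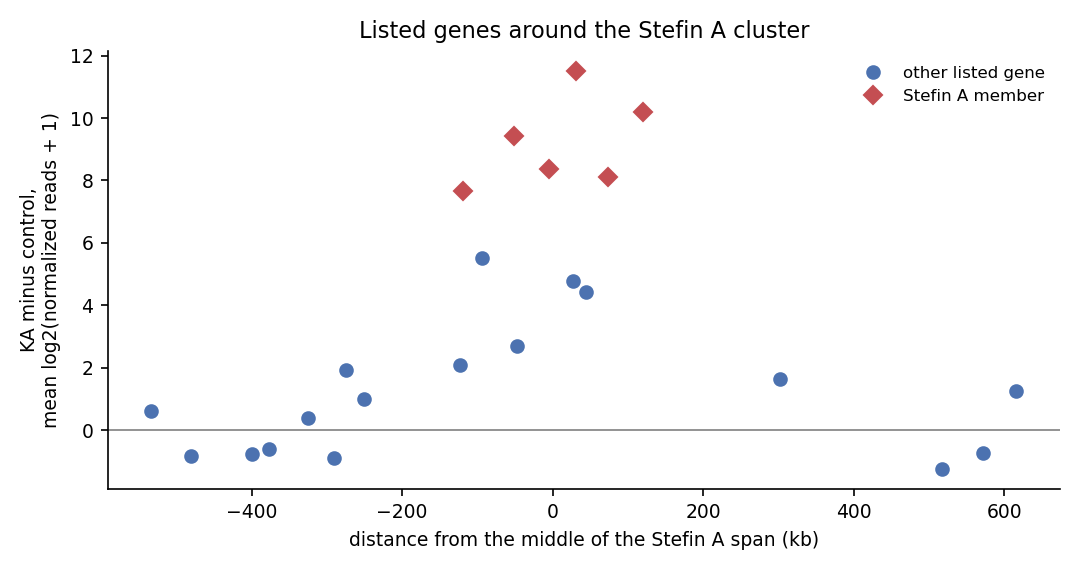
Difference between the KA and control means of log2(normalized reads + 1) for every listed gene within 500 kb of the Stefin A genes, against the distance of the gene from the middle of the cluster in kb; red diamonds are the 6 Stefin A genes and blue dots other listed genes. The blue dots inside the cluster are 2010005H15Rik, Gm25465, Gm15845 and Gm23306, and the dots beyond it lie on both sides of 0.

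Likeness to the summed Stefin A profile was measured as the root mean square difference in log2(normalized reads + 1) over the 7 libraries, each profile centred on its own mean. The nearest gene was Serpinb3a (0.54), a clade B serpin whose human relatives inhibit cysteine proteases. It stood at 0, 0 and 4.01 normalized reads in controls and at 3407, 1734, 1505 and 2379 in KA 1 to 4. Next came S100a9 (0.73), the aldehyde oxidase gene Aox4 (0.74), S100a8 (0.75), the cornified envelope genes Sprr2d (0.91) and Sprr1b (1.27), Ankk1 (1.39) and the urate oxidase gene Uox (1.46). The Stefin A genes themselves ranged from 0.18 for Stfa3, which makes up most of the sum, to 1.58 for Gm5416. The step between controls and KA mice, for which the Stefin A genes were chosen, is part of this measure. BC100530 (0.90), BC117090 (1.12), Stfa2 (1.18) and Gm5416 had larger distances than S100a9, but control values with few or no reads weigh on these. Relative to its own KA mean, the sum stood at 1.37, 0.848, 0.767 and 1.01 in KA 1 to 4. BC100530 stood at 1.39, 0.790, 0.772 and 1.05, S100a9 at 1.84, 0.560, 0.259 and 1.34, and Gm5416 at 1.80, 0.551, 0.215 and 1.44.

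The cathepsins, the enzymes that stefins bind, moved in both directions. Of 11 cysteine cathepsin and legumain genes, 8 were listed, 4 rose and 4 fell, with a median log2 fold change of -0.12 against 0.22 over all genes tested. Ctsc, which encodes the dipeptidyl peptidase that activates serine proteases of immune cells, rose from 624 ± 125 (SD, n = 3) to 3104 ± 1236 normalized reads (SD, n = 4; log2 fold change 2.16, edgeR adjusted p = 0.000147). Ctsz rose by 1.67 (edgeR adjusted p = 1.65e-05), Ctss, the cathepsin of antigen-presenting cells, by 1.36 (edgeR adjusted p = 0.000165), and the lysosomal Ctsb by 0.39 (edgeR adjusted p = 0.00969). Ctsl, a lysosomal cathepsin of keratinocytes and a textbook stefin target, fell from 2728 ± 484 to 1172 ± 258 (log2 fold change -1.35, edgeR adjusted p = 0.000135). Ctso (-1.42, edgeR adjusted p = 7.37e-05), Ctsw (-0.99, edgeR adjusted p = 0.00226) and Ctsf (-0.63, edgeR adjusted p = 0.0153) also fell. Ctsf did not pass without control 3 (-0.44, adjusted p = 0.0843). In KA mice the summed Stefin A level of 81976 to 146871 normalized reads stood beside a summed level of 16503 to 19928 for the 8 cathepsin genes, against 43.5 to 112 and 12962 to 13448 in controls.

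Of 28 cystatin genes sought, 4 were found in the table; 3 of these rose and 1 fell, and their median log2 fold change was 1.27. Cstb (stefin B), the other cytosolic cystatin, rose from 2129 ± 492 (SD, n = 3) to 7297 ± 1428 normalized reads (SD, n = 4), or by 1.64 in log2 (SE 0.19, edgeR adjusted p = 8.15e-05). Cst6 (cystatin M/E), a secreted inhibitor of cathepsin L and legumain in the upper epidermis, rose from 17832 ± 4416 to 41857 ± 10740 (log2 fold change 1.10, edgeR adjusted p = 0.00185). Fetub rose from 29.3 to 89.1 (1.45, edgeR adjusted p = 0.00321), and Kng2, a kininogen gene, fell from 27.3 to 3.64 (-3.00, edgeR adjusted p = 0.000154). In controls Cstb and Cst6 were thus well above the Stefin A sum of 43.5 to 112 reads, and in KA mice both were below it.

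**Figure D5:**
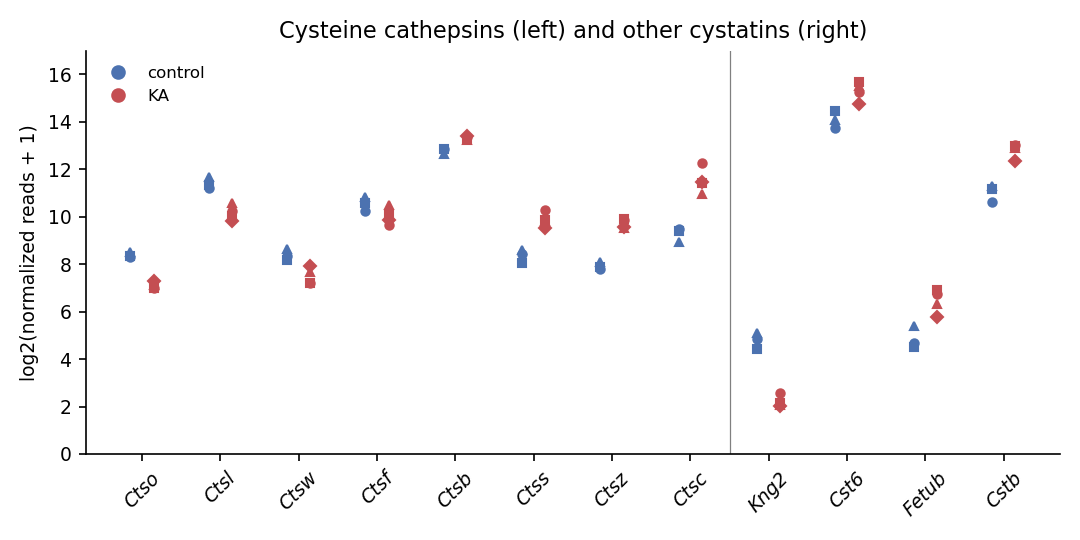
Levels of the 8 listed cysteine cathepsins (left of the line) and 4 listed other cystatins (right) as log2(normalized reads + 1), blue for controls and red for KA libraries, with marker shapes giving the library number as in the plot of the Stefin A genes. Ctso, Ctsl, Ctsw, Ctsf and Kng2 are lower in KA mice on average and the other 7 higher.

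Genes of envelope cross-linking, the process that human cystatin A takes part in, were mixed as well. Of 8, 6 were listed, 4 rose and 2 fell, with a median log2 fold change of 0.54. The transglutaminase genes Tgm3 (191 to 1740 normalized reads, log2 fold change 3.06, edgeR adjusted p = 5.95e-05) and Tgm1 (1061 to 1899, 0.70, edgeR adjusted p = 0.00125) rose. Periplakin, Ppl, an envelope scaffold, fell from 16659 to 7860 (-1.22, edgeR adjusted p = 0.000252). Among 20 other protease inhibitor genes, 12 were listed and 11 tested, 7 rose and 4 fell, with a median of 2.32. Serpinb3a rose by 10.29 (edgeR adjusted p = 1.94e-06); its fitted value was 14.06 without control 3, the only control with reads of it, and 9.81 without control 1 or control 2. Its relative Serpinb3b rose from 256 to 1695 (2.58, edgeR adjusted p = 5.7e-05), while Spink5, the gene of the serine protease inhibitor LEKTI, fell from 10297 to 3914 (-1.52, edgeR adjusted p = 3.17e-05).

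Neutrophil markers were followed because neutrophils can carry stefin A transcripts. Of 22 markers 7 were listed, 5 higher and 2 lower in KA mice, with a median log2 fold change of 7.04. Their summed level was 2578 to 3351 normalized reads in controls and 13399 to 69680 in KA libraries. Most of the control sum was Il1r2 (mean 2250) and Mmp9 (mean 570), the 2 that were lower in KA mice. In KA libraries most of it was S100a8 (mean 17071) and S100a9 (mean 21490). The chemokine receptor gene Cxcr2 stood at 0, 1.03 and 4.01 in controls and at 386, 220, 220 and 289 in KA 1 to 4 (log2 fold change 7.04, edgeR adjusted p = 6.72e-06, and 8.71 without control 3). S100a8 and S100a9 summed to 64696, 22484, 10741 and 56322 in KA 1 to 4 and to 12.3 to 16.8 in controls. Lcn2 (7.13) and Padi4 (3.11, and 2.28 without KA 3) also rose, and Mmp9 (-2.20) and Il1r2 (-1.17) fell, these 4 being named after their values were seen. The granule and surface markers Ly6g, Mpo, Elane, Csf3r, Ngp and Camp were not analysed here. S100a8, S100a9 and Lcn2 are also made by keratinocytes, and the part of neutrophils in the Stefin A levels was not tested. In KA 3, where the S100a8 and S100a9 sum was 6.02 times below KA 1, the summed Stefin A level was 1.79 times below it. Cxcr2 went from 386 in KA 1 to 220 in KA 3, and Lcn2 from 3680 to 579. Padi4 (34.6 to 138), Mmp9 (61.3 to 245) and Il1r2 (822 to 1476) were instead higher in KA 3. For single Stefin A genes the step from KA 1 to KA 3 was 1.66 times for Stfa3, 1.80 for BC100530 and 2.69 for Stfa1. It was 3.73 for BC117090 and 8.37 for Gm5416, while Stfa2 was lowest in KA 2.

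Markers of other cells were given the same look. Langerhans cell markers were listed in 7 of 7 cases and all rose (summed 28507 to 39762 in controls and 53870 to 80133 in KA libraries). Of 10 macrophage and monocyte markers 8 were listed and 7 tested, 5 higher and 2 lower, with a summed level of 832 to 1179 in controls and 1851 to 2303 in KA libraries. Of 9 T cell markers 4 were listed, 1 higher and 3 lower (1197 to 1526 and 684 to 794). The markers against the run of their list were Adgre1 (-1.56) and Cd68 (-0.78) among the macrophage markers and Cd2 (0.59) among the T cell markers, named after their values were seen. The 8 mast cell and 6 fibroblast markers were not analysed here. The part of these cells in the Stefin A levels was not tested.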

How the data were processed

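RNA of mouse epidermis was sequenced in 7 libraries, 4 KA and 3 control, with groups and sexes taken from the sample titles. Nothing says whether the mice were littermates. The submitters' processing notes name fastp, STAR 2.6.1d, featureCounts 1.5.0-p3, DESeq2 1.40.2 and mm10; strand and multi-mapping settings are not given in the sources used here. The deposited table holds raw read counts per gene and, per the file headers and values, normalized reads (a signal without a unit) that the authors made by dividing counts by a size factor per library. It also holds the authors' p-values, log2 fold change and test score.

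Identifiers and positions were compared with GENCODE M21 on GRCm38 and were the same for 6 of 6 Stefin A genes. Promoters are RefSeq's, with none matched for BC117090. Counts were fitted with edgeR 4.0.16 (R 4.3.3, limma 3.58.1): filterByExpr kept 6761 genes and left out 330, with TMM factors, robust glmQLFit, glmQLFTest, p-values adjusted by Benjamini-Hochberg across the 6761 genes and called below 0.05. The sex contrast used 4 groups of genotype by sex. The code was tested on simulated data. Means and SDs are of normalized reads, and floors are 3 counts per control library. Over the listed genes the authors' size factors set log2 fold changes higher than TMM by a median of 0.13.

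The Stefin A genes and gene lists were chosen with earlier results of these data known. Named are these 6, all listed other cystatins and cathepsins, the 3 genes of smallest adjusted p of each other list (envelope partners, other inhibitors, neutrophil markers), listed genes within 500 kb, and the 8 genes nearest the summed profile. Alternatives were the authors' size factors, other filters and tools (DESeq2 1.42.0), blocks, KA libraries alone and each library left out.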

Additional observations from a re-analysis of the deposited data

Results flagged for a closer look

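Each named gene and the summed Stefin A level was checked for a KA library far from the other 3, by dividing its distance from the closest of them by the range of all 4. Of 50 checks 5 passed Dixon's 95% limit, where chance alone would give about 2.5, and no Stefin A gene was among them. KA 1 stood apart for Sprr1b (gap 0.894 of the range; 3544 normalized reads against 1490 to 1708), Ankk1 (0.903), Kng2 (0.855) and Tgm1 (0.837). KA 4 stood apart for Parp9 (0.867).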

How the results depend on the processing

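The log2 difference of the summed Stefin A reads kept its direction and stayed within 9.91 to 10.67 over 14 alternatives. Their KA share of listed reads (0.930%) was 0.427% without Stfa3 and 1.08% with the 10 most abundant other genes left out of the total, and 0.834% to 0.996% without one KA library. Genes past the threshold in KA against control numbered 5059 to 6758 (6188 as reported); with the authors' size factors 3547 of 6758 were higher. Nothing says whether the sample numbers pair the mice. Same-number correlations of levels centred within each group were -0.18, 0.10 and -0.10. They cannot settle it, since centring makes the correlations of a library with the other group offset one another. With the replicate block 5749 genes passed and the summed difference was 10.26. For KA males against females the count of genes was 7 with the authors' size factors, 98 with DESeq2, 0 with KA libraries alone (688 at an unadjusted p under 0.05), and 0 to 79 with a library left out, against 1 as reported; 0 of 6 Stefin A genes passed in all 13. With a library left out, that log2 difference ranged from -0.25 to 0.52 for BC100530, -0.62 to 2.37 for Gm5416, -0.36 to 0.90 for Stfa1, -0.34 to 0.53 for Stfa2, 0.01 to 0.51 for Stfa3 and 0.41 to 1.41 for BC117090; the first 4 were negative without KA 1, and BC100530 (-0.017), Gm5416 (-0.37) and Stfa1 (-0.16) also without KA 3. All 51 tested genes of the locus and lists kept their direction, 46 also their call; the others were Ctsf, Hspbap1, Kpna1, Ivl (not past without control 1, control 3 or KA 3 or with title letters as a block) and Tgm5 (without control 2). Reads behind the control values limit the folds and control shares.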
